A study of Rattus norvegicus with 24 samples.

Results

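The MHC class II genes and their transactivator were followed across every arm of a rat arthritis study. The set held 8 genes, namely Ciita, Cd74, RT1-Da, RT1-Db1, RT1-DMa, RT1-DMb, RT1-Ba and RT1-Bb, taken as all probe sets that the platform annotation assigns to 1 of these symbols and to no other gene. They are 8 of the 14218 genes that the array names by a single symbol. They had 14 of its 31099 probe sets, and 14 of 14 passed the filter on low values that kept 20690 probe sets. The 6 further class II region genes that were sought had 0 probe sets with a single symbol and were not analysed here.

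Peripheral blood mononuclear cells (PBMC), the lymphocytes and monocytes left after a density gradient removes most granulocytes and red cells, were profiled from female Wistar rats on 24 Affymetrix whole-genome rat expression arrays. Each of 12 groups had 2 arrays from separate rats, since every rat was killed at sampling. Collagen-induced arthritis (CIA) was raised with bovine type II collagen in Freund's adjuvant and a booster. The study asked how needle stimulation acts through the blood compared with methotrexate and with control arms.

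NOCIA T0 and CIA T0 are healthy and arthritic rats sampled before any therapy, and NOCIA 1h and NOCIA 34d are healthy rats sampled at the later times, 1 hour and 34 days after therapy started in the other arms. MS 1h and MS 34d are arthritic rats given mechanical stimulation with a twirled needle at points on the back and leg. MTX 1h and MTX 34d received methotrexate weekly into the peritoneum, and PLA 1h and PLA 34d received saline by the same route. ANE 1h and ANE 34d had arthritis and no other therapy, and were anaesthetised for sampling with isoflurane where PLA, MS and MTX rats received ether. The sources used here state neither the age of the rats nor the anaesthetic of the NOCIA and CIA T0 rats. Wistar rats are an outbred stock, so rats of 1 group need not share MHC alleles, and each time point held different rats.

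MHC class II molecules carry peptides from swallowed antigen to the surface of B cells, monocytes and dendritic cells, where CD4+ T cells read them. In the rat the classical molecules are RT1-B, built from the RT1-Ba and RT1-Bb chains, and RT1-D, built from RT1-Da and RT1-Db1, and their peptide-binding chains are among the most variable proteins between individuals. Cd74, the invariant chain, blocks the groove during assembly, and the RT1-DM heterodimer of RT1-DMa and RT1-DMb exchanges its remnant for antigenic peptide. Ciita binds no DNA itself. It docks on factors that sit on the X and Y boxes of class II promoters, and its own level sets how strongly these genes are read.

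The promoters are shown first because the X and Y boxes are the shared element through which Ciita acts on these genes. RefSeq promoter windows (build GRCr8, from 250 bases before to 50 bases after each start) were matched for 6 of the 8 genes. Capitals mark an X-box element GNNAC followed 32 to 34 bases later, start to start, by the Y-box element ATTGG on the strand of the gene. 5 of the 6 windows held this spaced pair on the strand of the gene. Of all 33469 promoters searched, 574 (1.72%) held it on either strand. The letters of the motif were chosen with the member sequences in view. ATTGG alone, on either strand, was found in 37.5% of all promoters. The stretches are written 5′ to 3′ on the strand of the gene, all 5 from the RT1 region of chromosome 20:
RT1-Da, chr20:4515319-4515384, plus strand: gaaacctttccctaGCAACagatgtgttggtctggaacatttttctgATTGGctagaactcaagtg
RT1-Db1, chr20:4560224-4560288, minus strand: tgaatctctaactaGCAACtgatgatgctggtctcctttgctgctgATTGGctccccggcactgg
RT1-DMa, chr20:4712381-4712446, minus strand: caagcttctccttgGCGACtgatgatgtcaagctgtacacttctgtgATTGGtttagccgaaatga
RT1-Ba, chr20:4576967-4577032, plus strand: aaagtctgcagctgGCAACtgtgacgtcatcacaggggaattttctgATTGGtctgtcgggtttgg
RT1-Bb, chr20:4604161-4604225, minus strand: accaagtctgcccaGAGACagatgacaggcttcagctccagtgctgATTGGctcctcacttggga

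The X element lay between 76 bases (RT1-Ba) and 112 bases (RT1-Db1) before the start, and RT1-Da, RT1-Db1 and RT1-Ba carried the same 5 letters there, GCAAC, while RT1-DMa had GCGAC and RT1-Bb GAGAC. The Cd74 window, on chromosome 18, did not hold the spaced pair on the strand of the gene, which says only that these letters are not there. Ciita on chromosome 10 and RT1-DMb on chromosome 20 had no entry.

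All values below are deposited log2 expression values, 1 unit being a 2-fold difference, and are compared only within a probe set. Differences are means of groups with their standard error (SE) from limma fitted to all 24 arrays, and a probe set was called at an adjusted p under 0.05 over all 20690 probe sets. The study's own rule, an unadjusted p under 0.05 with a fold over 2, is counted beside it. With 2 arrays against 2, an exact permutation test of a single value cannot give a p under 0.333, so the fit across all probe sets was used. Markers of the labelled cells were present, with 12 of 12 T cell, 8 of 8 B cell and 10 of 11 monocyte markers with a probe set passing the filter. So were those of neutrophils (7 of 7) and erythroid cells (6 of 6), most of which the gradient should remove, and of platelets (13 of 13). Passing therefore does not identify the preparation. MS 34d replicate 1, MS 1h replicate 1, ANE 1h replicate 1 and PLA 1h replicate 2 stood apart from the rest in an earlier look at these data, with 13 platelet markers at a mean centred level of 1.01 to 1.46, and results that turn on them are given without them.

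Ciita fell over 34 days in healthy rats, at both of its probe sets, and it fell in MS rats at 1 of them. Probe set 1379381_at read 8.26 and 8.15 in NOCIA T0 and 6.55 and 6.56 in NOCIA 34d. The 34-day rats were lower without overlap, and each pair of replicates lay within 0.11 of each other. The difference was -1.65 ± 0.29 (SE, n = 2 and 2, adjusted p = 0.00207, limma), a 3.15-fold fall.

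The other Ciita probe set, 1369214_a_at, read 7.17 and 7.23 in NOCIA T0 and 6.22 and 6.25 in NOCIA 34d, again without overlap. It fell by 0.96 ± 0.18 (SE, adjusted p = 0.00289, limma), a fold of 1.95 that does not reach the study's fold of 2. These were the 2 of 14 member probe sets called in that comparison, where 5.66% of all probe sets were called lower and 6.31% higher. Both stayed called when any 1 of the 4 arrays was left out, with adjusted p between 0.0176 and 0.0385.

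None of the 12 probe sets of the class II genes and Cd74 was called in the healthy rats. Cd74 read 13.50 and 13.47 at T0 and 13.64 and 13.56 at 34 days, a difference of 0.12 ± 0.39 (SE, adjusted p = 0.929, limma). RT1-DMa read 9.69 and 9.42 at T0 and 10.48 and 10.27 at 34 days, a difference of 0.83 ± 0.46 (SE) that missed the threshold (adjusted p = 0.309, limma). RT1-Da differed by 0.39 ± 0.38 (SE) in the same direction without passing. The median difference over the 14 probe sets was -0.02, as it was over all probe sets (-0.02), and 5 of 14 were higher and 3 of 14 lower without overlap, where 31.7% and 34.3% of all probe sets were.

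Markers of B cells and of other lymphocytes moved beside Ciita. Of the 8 B cell markers with a probe set, 7 were called lower in NOCIA 34d than in NOCIA T0, among them Ms4a1 (CD20, -2.15 ± 0.41), Cr2 (complement receptor 2, -2.05 ± 0.33) and Pou2af1 (a B cell coactivator, -2.62 ± 0.28, all SE), and Blk was not (-0.14 ± 0.24). The mean centred level of the 8 markers was 0.82 and 0.86 in NOCIA T0 and -0.78 and -0.70 in NOCIA 34d. Markers of natural killer (NK) cells gave 9 of 9 differences below 0 in this comparison, a median of -1.73 (-1.58 for B cells), 2 called lower and 6 lower by the study's rule. Of all 20690 probe sets, 1172 were called lower and 903 were lower by the study's rule. The level of the NK markers was 0.56 and 0.46 in NOCIA T0 and -1.13 and -0.86 in NOCIA 34d. Of 12 T cell markers 11 were below 0 and 1 was called lower, with a median of -0.42.

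Over the 24 arrays the Ciita probe set 1379381_at followed the level of the B cell markers with r = 0.936 (Spearman's rho = 0.903, r = 0.902 without the 2 arrays farthest from the median), and 1369214_a_at with r = 0.739. These are descriptions over arrays that share groups and controls. In bulk PBMC, fewer cells of a type and less RNA per cell cannot be told apart, and the part of B, NK or T cell number in the Ciita values was not tested.

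**Figure D1:**
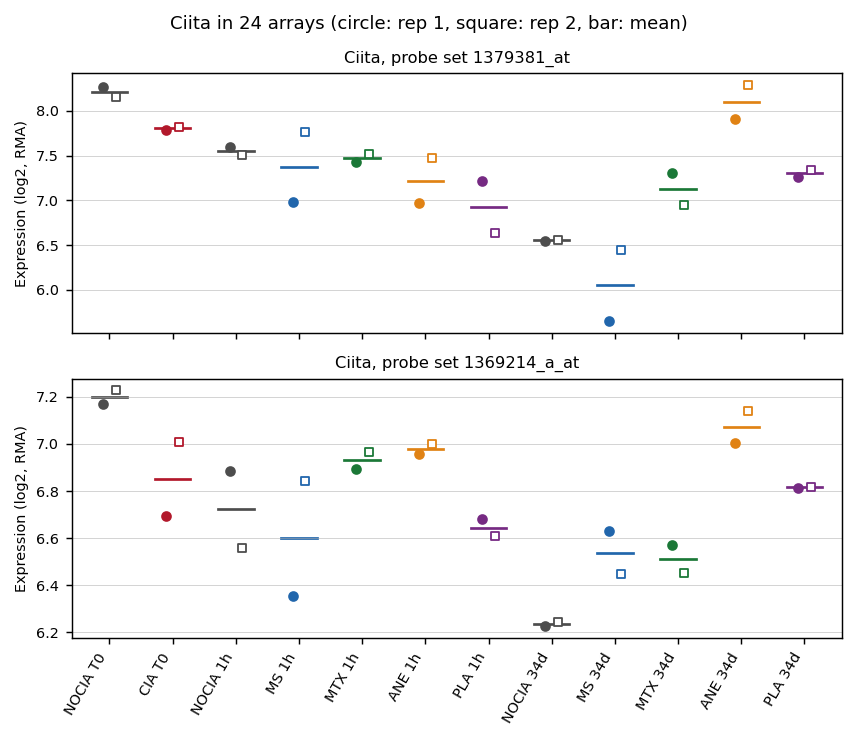
Log2 expression of the 2 Ciita probe sets in each of the 12 groups, with a circle for replicate 1, a square for replicate 2 and a bar for their mean. The mean of NOCIA T0 is the highest group mean at both probe sets, the highest array at 1379381_at is ANE 34d replicate 2 (8.29), the means of NOCIA 34d are 6.55 and 6.23, and those of ANE 34d are 8.10 and 7.07.

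In arthritic rats Ciita was lower at 34 days than at T0 in the MS arm, at 1 of its 2 probe sets. CIA T0 read 7.79 and 7.82 at 1379381_at, MS 34d 5.65 and 6.44, MTX 34d 7.31 and 6.95, PLA 34d 7.26 and 7.34, and ANE 34d 7.90 and 8.29. MS, MTX and PLA rats lay below CIA T0 without overlap and ANE rats above it. Only the MS difference passed, at -1.76 ± 0.29 (SE, adjusted p = 0.0186, limma), a 3.38-fold fall, against -0.68 ± 0.29 for MTX, -0.50 ± 0.29 for PLA and 0.29 ± 0.29 for ANE (adjusted p = 0.81, 1 and 1, limma). These 4 arms share the CIA T0 arrays. No difference between arms at 34 days passed, with MS minus PLA at -1.25 ± 0.29, MS minus MTX at -1.08 ± 0.29, ANE minus PLA at 0.79 ± 0.29 and MTX minus PLA at -0.17 ± 0.29 (SE, adjusted p = 0.179, 0.327, 1 and 1, limma).

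At 1369214_a_at the same groups lay closer together. CIA T0 read 6.69 and 7.01, MS 34d 6.63 and 6.45, MTX 34d 6.57 and 6.45, PLA 34d 6.81 and 6.82, and ANE 34d 7.00 and 7.14. MS 34d was lower without overlap but the difference of -0.31 ± 0.18 (SE, adjusted p = 0.202, limma) did not pass. At the other probe set the difference was -1.36 without MS 34d replicate 1, -1.77 without CIA T0 replicate 1 and -1.74 without CIA T0 replicate 2. It was -1.36 as well without the 4 arrays that stood apart. Each of these fits leaves 1 rat in a group. Calls over all probe sets, that of Ciita included, depended on which arrays were left out. B cell markers moved here too, with 6 of 8 called lower in MS 34d, at levels of -1.31 and -0.70 against 0.25 and 0.30 in CIA T0. Of all probe sets, 5.44% were called lower in this comparison.

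The 34-day change of Ciita differed between the ANE arm and healthy rats, by a direct test of the difference of changes. At 1379381_at and 1369214_a_at the ANE change itself was 0.29 and 0.22, and the NOCIA change was -1.65 and -0.96. The 34-day change in ANE minus that in NOCIA was 1.95 ± 0.41 at 1379381_at and 1.18 ± 0.25 at 1369214_a_at (SE, adjusted p = 0.0226 and 0.0241, limma). These were 2 of 14 probe sets called, both higher, where 0.87% of all probe sets were called higher and 1.99% lower. Without any 1 of the 8 arrays involved, the calls were lost, with adjusted p from 0.0579 to 0.123 and differences from 1.03 to 2.14. Of the 8 B cell markers, 5 were called higher in the same comparison, and their level in ANE 34d was 0.27 and 0.79. The part of B cells in this difference was not tested.

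The corresponding differences for MS, MTX and PLA gave 0 of 14 calls each (limma), where 0.0338%, 0.0242% and 0.00967% of all probe sets were called. At an unadjusted p under 0.05 there were 6, 2 and 2 of 14, where 19.9%, 7.5% and 9.8% of all probe sets were. PLA 34d lay above NOCIA 34d at both Ciita probe sets without overlap, by 0.75 ± 0.29 and 0.58 ± 0.18 (SE, adjusted p = 0.338 and 0.215, limma). These were the 2 of 14 at an unadjusted p under 0.05 in that comparison, where 10.6% of all probe sets were, and 0 of 14 passed the adjusted threshold (limma, 0.0773% of all probe sets called).

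Across all groups the Ciita probe set 1379381_at ran from a mean of 8.21 in NOCIA T0 through 8.10 in ANE 34d and 7.80 in CIA T0 down to 6.55 in NOCIA 34d and 6.05 in MS 34d. The groups between them, NOCIA 1h, MTX 1h, MS 1h, PLA 34d, ANE 1h, MTX 34d and PLA 1h in that order, fell from 7.55 to 6.93, and each overlapped its neighbour. Of the 11 steps between neighbours, 7 overlapped and 4 did not, the 4 being ANE 34d to CIA T0, CIA T0 to NOCIA 1h, PLA 1h to NOCIA 34d and NOCIA 34d to MS 34d. At 1369214_a_at the order also began with NOCIA T0 (7.20) and ANE 34d (7.07) but ended with NOCIA 34d (6.23), and 8 of the 11 steps overlapped. The 2 Ciita probe sets correlated at r = 0.742 over the 24 arrays.

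The group mean was lowest in MS 34d at 8 of the 12 probe sets of the class II genes and Cd74. The lowest group was ANE 1h at 1 probe set of RT1-Db1, ANE 34d at 1 of RT1-Bb, and PLA 1h and MTX 1h at the 2 dim probe sets of RT1-Ba. In MS 34d minus CIA T0, 3 of 14 member probe sets were called, all lower, where 5.44% of all probe sets were called lower and 1.52% higher, namely the Ciita probe set above and both probe sets of RT1-Db1. By the study's rule 6 of 14 were lower, against 8.63% of all probe sets. The median difference was -1.02 against -0.16 over all probe sets, and 9 of 14 were lower without overlap, against 38.4%. Leaving out MS 34d replicate 1 took the median to -0.34, and leaving out replicate 2 took it to -1.78. Each such fit leaves 1 rat in a group, and the calls depended on which MS 34d or CIA T0 array was left out. So did the calls over all probe sets in this comparison, including those named below for genes outside the set.

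Cd74 read 13.33 and 13.58 in CIA T0 and 11.56 and 13.28 in MS 34d. Both MS rats were below both CIA T0 rats, replicate 1 by a wide margin and replicate 2 by little. The difference was -1.04 ± 0.39 (SE, adjusted p = 0.081, limma), a 2.05-fold lower mean that met the study's rule and missed the adjusted threshold.

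RT1-Da, the alpha chain of RT1-D, read 13.003 and 13.33 in CIA T0 and 11.27 and 12.76 in MS 34d, with no overlap. The difference was -1.15 ± 0.38 (SE, adjusted p = 0.0654, limma).

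RT1-Db1, its beta chain, read 11.42 and 11.68 in CIA T0 and 9.52 and 10.95 in MS 34d at 1370383_s_at. The groups did not overlap, and the fall of 1.32 ± 0.38 (SE, adjusted p = 0.0499, limma) passed by a narrow margin. Without MS 34d replicate 1 the difference was -0.61, and without CIA T0 replicate 1 or replicate 2 it was -1.45 and -1.19. Each of these fits leaves 1 rat in a group.

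RT1-DMb, a chain of the peptide exchanger, read 11.44 and 11.60 in CIA T0 and 9.23 and 11.18 in MS 34d, a difference of -1.31 ± 0.52 (SE, adjusted p = 0.0907, limma). RT1-DMa, its partner, read 9.74 and 10.34 against 8.68 and 10.20 and overlapped, with a difference of -0.60 ± 0.46 (SE). For these chains the MS rat of replicate 1 was the lowest of the 24 arrays. The same rat was the lowest of all 24 at 8 of the 14 member probe sets.

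RT1-Ba at 1370822_at read 11.52 and 11.92 in CIA T0 and 10.05 and 11.39 in MS 34d, and its difference of -0.999 ± 0.40 (SE, adjusted p = 0.0955, limma) missed the threshold and the study's fold of 2. At 1377334_at it read 11.11 and 11.50 against 9.48 and 11.55 and overlapped. The 2 dim probe sets of RT1-Ba, 1381593_x_at and 1392334_at, stayed between 6.98 and 8.001 on all arrays and differed by 0.10 ± 0.24 and 0.11 ± 0.22 (SE).

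**Figure D2:**
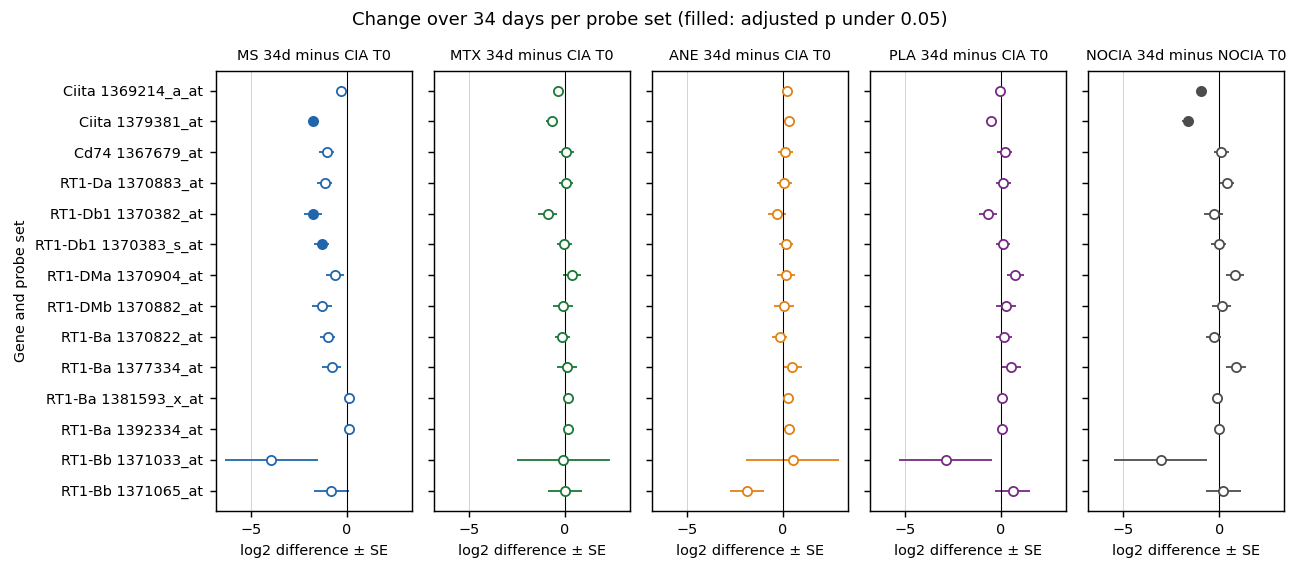
Log2 difference with its SE (bars) for each of the 14 probe sets in 5 comparisons over 34 days, filled where the adjusted p was under 0.05. The filled points are 3 in MS 34d minus CIA T0 and the 2 Ciita probe sets in NOCIA 34d minus NOCIA T0, and RT1-Bb has the widest bars.

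Markers of several other cell types stood low or high in the arrays where the class II genes were low. MS 34d replicates 1 and 2 had mean centred levels of 1.46 and 0.49 for 13 platelet markers, against -0.51 and -0.74 in CIA T0, and 10 of the 13 were higher by the study's rule with 0 called. Monocyte markers (10 genes) stood at -1.32 and 0.00 against 0.22 and 0.34, with 3 lower by the study's rule and 0 called. T cell markers (12 genes) stood at -1.52 and -0.19 against 0.44 and 0.49, with 3 called lower and 9 lower by the study's rule. NK markers (9 genes) stood at -1.50 and -0.62 against 0.52 and 0.57, with 1 called lower and 7 lower by the study's rule. Of all 20690 probe sets in this comparison, 1080 were higher and 1786 lower by the study's rule, and 314 were called higher and 1125 lower. Dendritic cells, which also carry class II molecules, had 6 markers at 0.17 and -0.02 against -0.10 and -0.21, with a median difference of -0.07 and 0 called. Clec9a and Itgax, surface receptors of these cells, were higher by the study's rule, at 1.58 ± 0.63 and 1.43 ± 0.61 (SE, adjusted p = 0.0926 and 0.107, limma).

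RT1-DMb followed the monocyte markers most closely of the members, with r = 0.909 over 24 arrays (rho = 0.797, r = 0.821 without the 2 arrays farthest from the median). Cd74 followed T cell markers at r = 0.803, monocyte markers at r = 0.724, platelet markers at r = -0.748 and dendritic cell markers at r = -0.347. Without the 2 arrays farthest from the median of each list these became 0.238, 0.604, -0.631 and -0.453, so that the relation to T cell markers rested on those arrays. The part of these cells in the MS 34d values was not tested.

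**Figure D3:**
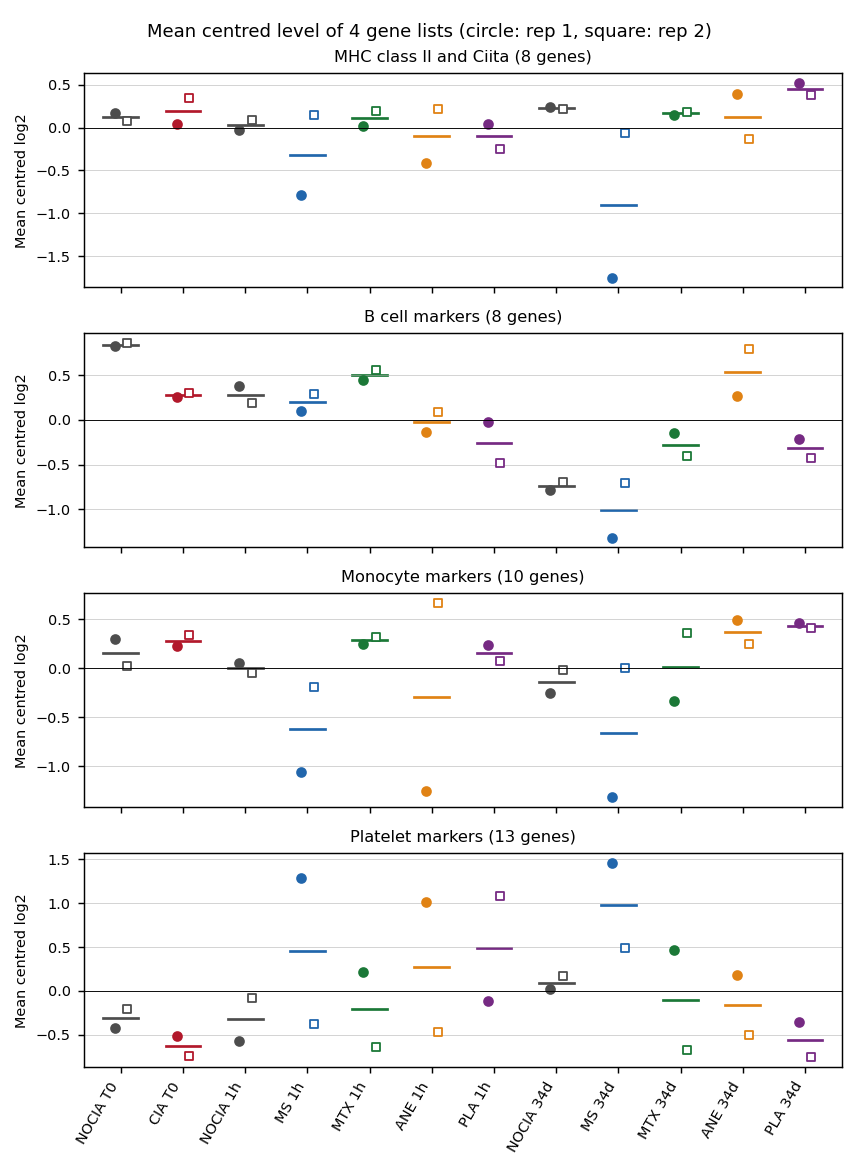
Mean centred log2 level per array of the 8 members (1 probe set per gene, that with the highest mean) and of B cell, monocyte and platelet markers, with circles for replicate 1, squares for replicate 2 and bars for means. MS 34d replicate 1 is the lowest array for the members (-1.75) and the highest for platelet markers (1.46), and the B cell markers are highest in NOCIA T0 (0.82 and 0.86).

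Against the other treated arms at 34 days the MS rats were lower at most member probe sets without any call. In MS 34d minus PLA 34d, 0 of 14 member probe sets passed (limma, 0% of all probe sets called), while 9 of 14 met an unadjusted p under 0.05, where 23.2% of all probe sets did. The same 9 met the study's rule, where 3.04% of all probe sets did in that direction. Cd74 read 13.78 and 13.51 in PLA 34d, giving -1.23 ± 0.39, and RT1-DMb read 11.95 and 11.61, giving -1.58 ± 0.52 (SE, adjusted p = 0.179 for each, limma).

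The median over the 14 was -1.24 against -0.15 over all probe sets, and -0.50 without MS 34d replicate 1. In MS 34d minus MTX 34d, 0 of 14 passed and 6 of 14 had an unadjusted p under 0.05, with 0% and 14.4% of all probe sets, and the median was -0.93 (-0.25 without MS 34d replicate 1). In MS 34d minus MS 1h, 0 of 14 passed with 3 of 14 at an unadjusted p under 0.05 (0% and 7.62% of all probe sets).

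Methotrexate, saline and isoflurane rats at 34 days gave no call for any member against CIA T0. In MTX 34d minus CIA T0, ANE 34d minus CIA T0 and PLA 34d minus CIA T0, 0 of 14 were called (limma, 0% of all probe sets in each), with 1, 0 and 0 at an unadjusted p under 0.05 (5.85%, 1.48% and 4.85% of all probe sets). Their medians over the 14 were -0.01, 0.16 and 0.11. Cd74 differed by 0.08 ± 0.39, 0.13 ± 0.39 and 0.19 ± 0.39 (SE) in these arms. RT1-DMa had its highest group mean in PLA 34d, at 10.95 and 10.63 against 9.74 and 10.34 in CIA T0, and the difference of 0.75 ± 0.46 (SE) did not pass. MTX 34d minus PLA 34d and ANE 34d minus PLA 34d gave 0 of 14 calls as well (limma, 0% of all probe sets), with 0 and 2 at an unadjusted p under 0.05 (0.739% and 3.07%).

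Before therapy, no member probe set differed past the threshold between arthritic and healthy rats. In CIA T0 minus NOCIA T0, 0 of 14 were called and 0 of 14 had an unadjusted p under 0.05 (limma, 0.00483% and 3.81% of all probe sets). The differences ran from -0.40 to 0.49 with a median of 0.07. The lowest was Ciita at 1379381_at and the highest RT1-DMa.

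At 1 hour after the start of therapy no member probe set was called in any of the 5 comparisons with T0 (limma), and 0, 0, 1, 2 and 2 of 14 had an unadjusted p under 0.05 in MS, MTX, ANE, PLA and NOCIA. The share of all probe sets called was 0.00967%, 0.0145%, 0.0338%, 0% and 0.00483% by the adjusted p, and 8.3%, 1.24%, 10.8%, 6.89% and 3.57% by the unadjusted p. The medians were -0.43, -0.03, -0.37, -0.33 and -0.25 in that order. In MS 1h the replicates lay far apart, with Cd74 at 12.59 and 13.50 and RT1-DMb at 9.89 and 11.13, and the low rat was the one with platelet markers at 1.29 and monocyte markers at -1.05. ANE 1h showed the same at RT1-DMb, with 10.08 and 11.46, while its monocyte markers stood at -1.25 and 0.67. The part of these cells in the values was not tested.

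The 2 probe sets of RT1-Db1 gave differences of unlike size at 1 hour in the ANE and PLA arms. At 1370382_at ANE 1h read 7.49 and 7.57 and PLA 1h 8.01 and 8.52, against 9.64 and 9.91 in CIA T0. Both arms were lower without overlap, with differences of -2.24 ± 0.47 and -1.51 ± 0.47 (SE, adjusted p = 0.175 and 0.561, limma). At 1370383_s_at the same arms were also lower than CIA T0 without overlap, but by less, with differences of -0.39 ± 0.38 and -0.48 ± 0.38 (SE).

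At 34 days 1370382_at split 3 groups by over 1 unit between replicates, with 9.94 and 8.92 in NOCIA 34d, 8.81 and 10.15 in ANE 34d and 9.64 and 8.53 in PLA 34d. In MS 34d it read 8.09 and 7.94, so that here, unlike at 1370383_s_at, both rats were low. The difference from CIA T0 there was -1.75 ± 0.47 (SE, adjusted p = 0.0437, limma). It was -1.83 without MS 34d replicate 1, -1.89 without CIA T0 replicate 1 and -1.62 without CIA T0 replicate 2. Each of these fits leaves 1 rat in a group, and calls over all probe sets depended on the array left out. The probe sets correlated at r = 0.634 (rho = 0.844) over the 24 arrays.

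**Figure D4:**
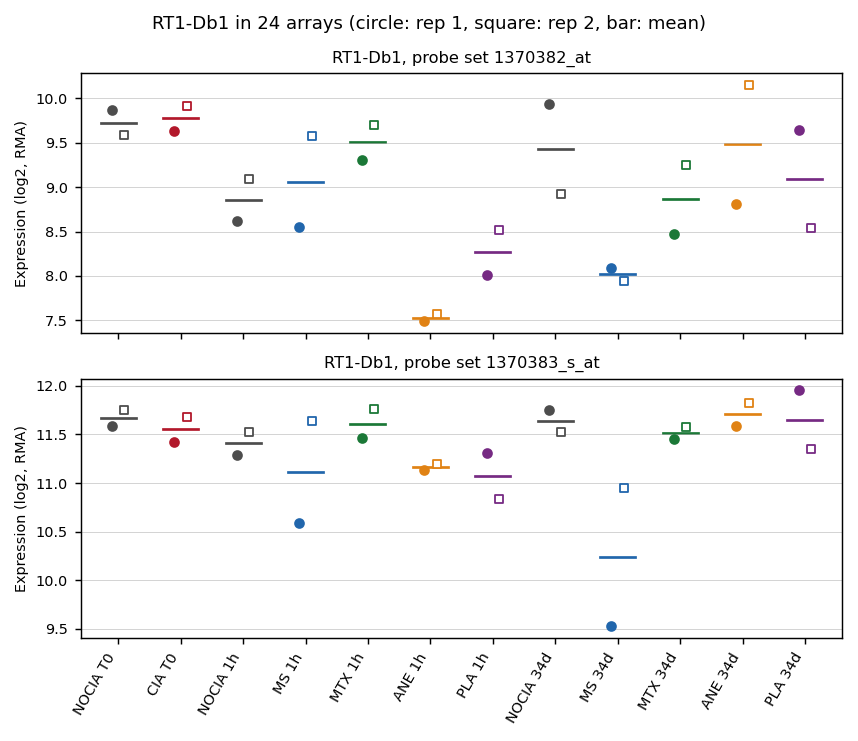
Log2 expression of the 2 RT1-Db1 probe sets by group, with a circle for replicate 1, a square for replicate 2 and a bar for the mean. At 1370382_at the ANE 1h rats are lowest (7.49 and 7.57), whereas at 1370383_s_at the lowest array is MS 34d replicate 1 (9.52).

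RT1-Bb, the beta chain of RT1-B, gave the widest spread of all members, and it lay between rats of 1 group rather than between groups. At 1371033_at 5 arrays fell below a gap that runs from 4.73 to 8.91. They were ANE 1h replicate 2 (4.73), PLA 1h replicate 2 (4.09), NOCIA 34d replicate 2 (4.08), MS 34d replicate 2 (4.50) and PLA 34d replicate 2 (4.28). The other 19 arrays read from 8.91 to 11.73.

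Each of the 5 low values was under the 40th percentile of its array, which lay between 4.83 and 5.06, whereas the other rat of each group read 10.11, 10.31, 10.92, 8.91 and 11.22. The second probe set, 1371065_at, did not follow, since it read 10.55, 10.16, 9.90, 10.38 and 10.68 in those 5 rats. It was low in 1 other rat, ANE 34d replicate 2, at 6.02, and that rat had the highest value of all at 1371033_at (11.73). Over the 24 arrays the 2 probe sets correlated at r = -0.340 (rho = -0.037).

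The low arrays came from healthy rats, saline rats, needle-treated rats and isoflurane rats, and both time points after T0. All of them were replicate 2 of their group, as was the low array at 1371065_at. The largest gap between replicates was 6.94 in PLA 34d at 1371033_at and 4.05 in ANE 34d at 1371065_at. The SE of a difference was accordingly 2.43 and 0.91, and differences as large as -3.94 (MS 34d minus CIA T0 at 1371033_at, adjusted p = 0.235, limma) did not pass. RT1-Bb at 1371033_at passed in none of the comparisons, and the cause of the low values was not tested.

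**Figure D5:**
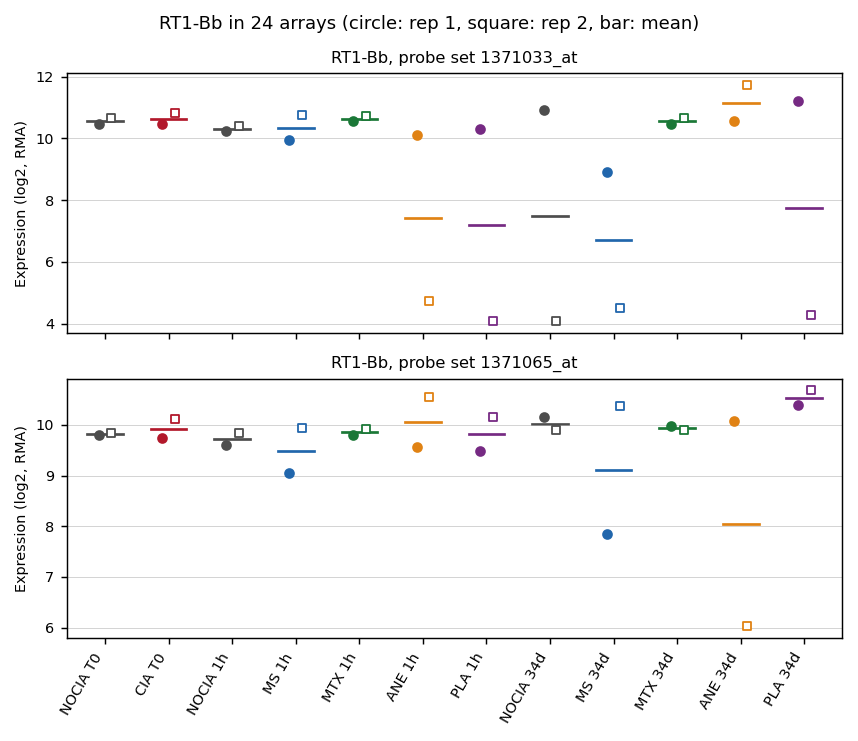
Log2 expression of the 2 RT1-Bb probe sets by group, with a circle for replicate 1, a square for replicate 2 and a bar for the mean. At 1371033_at 5 squares lie under 5 while 19 arrays lie at 8.91 or above, and at 1371065_at ANE 34d replicate 2 (6.02) stands alone.

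RT1-Ba, its alpha chain, also parted between its bright probe sets. From NOCIA T0 to NOCIA 1h, 1370822_at went from 11.70 and 11.49 to 10.95 and 11.18, while 1377334_at went from 11.28 and 11.03 to 11.92 and 12.03. The groups did not overlap at either, lower at the first and higher at the second. In NOCIA 34d the replicates were ordered oppositely, at 11.75 and 10.87 for 1370822_at and 11.52 and 12.56 for 1377334_at. Over 24 arrays the 2 correlated at r = 0.298 (rho = -0.185).

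The remaining structural genes moved together. Cd74 correlated with RT1-Da at r = 0.962, with RT1-Db1 1370383_s_at at r = 0.965, with RT1-DMb at r = 0.899 and with RT1-DMa at r = 0.743 over the 24 arrays. With Ciita it correlated at r = 0.604 for 1379381_at (rho = 0.296) and r = 0.220 for 1369214_a_at. These arrays share normalisation, and MS 34d replicate 1 is low for every one of these genes.

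Of 10 genes for factors that bind class II promoters or modify their chromatin, read at 1 probe set each, 0 were called in MS 34d minus CIA T0, where 5.44% of all probe sets were called lower and 1.52% higher. In NOCIA 34d minus NOCIA T0, 1 was called lower, where 5.66% of all probe sets were lower and 6.31% higher. These counts are near the shares of all probe sets. Rfx5, which binds the X box, differed by -0.87 ± 0.33 and -0.24 ± 0.33 (SE), and Nfyb, a subunit of the Y-box factor, by -0.61 ± 0.23 and -0.25 ± 0.23 (SE) in these comparisons. The gene called was Creb1, a factor of the X2 element, at -1.38 ± 0.39 (SE, adjusted p = 0.0312, limma) in healthy rats. Crebbp, a histone acetyltransferase, was called lower in both comparisons at 1 of its 5 probe sets, not the one counted, at -1.36 ± 0.30 and -1.13 ± 0.30 (SE, adjusted p = 0.0298 and 0.0201, limma).

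Among 12 inducers and repressors of Ciita, 1 was called lower in MS 34d minus CIA T0 at the probe set counted. In NOCIA 34d minus NOCIA T0 0 were called, and both counts are near the shares of all probe sets. The gene called was Prdm1, the repressor of Ciita in plasma cells, at -1.64 ± 0.42 (SE, adjusted p = 0.0421, limma). By the study's rule, 3 of the 12 were higher and 0 lower in NOCIA 34d minus NOCIA T0, with a median of 0.56. Of all 20690 probe sets there, 1148 were higher and 903 lower by that rule. Ifng, the main inducer, differed by -0.85 ± 0.90 and 1.01 ± 0.90, and Irf1, which carries its signal, by -0.50 ± 0.45 and 1.12 ± 0.45 (SE) in these comparisons, and none of these passed. Ifngr2, a chain of the interferon-gamma receptor, was called higher in healthy rats at the probe set not counted, by 1.85 ± 0.58 (SE, adjusted p = 0.0494, limma), and read 1.40 ± 0.56 (SE, adjusted p = 0.126) at the one counted.

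Of 10 genes for class II processing and turnover, 1 was called lower in MS 34d minus CIA T0, namely Marchf1 (-2.71 ± 0.75, SE, adjusted p = 0.0455, limma), the ubiquitin ligase that removes class II from the surface. Ifi30, a lysosomal reductase, and Ctss, the protease that trims the invariant chain, were lower by the study's rule at -1.41 ± 0.55 and -1.27 ± 0.57 (SE) without passing. In NOCIA 34d minus NOCIA T0, 1 of the 10 was called, Ctsl, a lysosomal protease, at 2.00 ± 0.49 (SE, adjusted p = 0.0143, limma). The shares of all probe sets in these comparisons are those given above for the promoter factors.

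Genes most like the member set were sought by Pearson r over 24 arrays against the mean centred level of the 8 members. The 8 highest were Rps6, Sgms1, Rpl5, Ndufs3, Rpl18, Rps23, Rpl3 and Rpl22, with r from 0.931 to 0.939, 6 of them encoding ribosomal proteins. Without MS 34d replicate 1 and MS 1h replicate 1 their r fell to between 0.599 and 0.773, so part of the likeness rested on those 2 rats. Sgms1, a sphingomyelin synthase, kept the highest value (0.773).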

How the data were processed

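PBMC RNA of 24 rats was hybridised to Affymetrix rat expression arrays. The deposited log2 values (2.18 to 15.0, array medians 5.49 to 5.58) were made by the authors. The labels name RMA and affy, whereas the methods describe MAS5 values and detection calls, which were not used here. Their versions are not stated in the sources. Arrays give no read depth, and their number limits the precision.

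The filter on low values kept 20690 of 31099 probe sets, those exceeding the 40th percentile of the array on 2 or more arrays. Platform annotation gave 1 symbol to 20832 probe sets, several to 436 and none to 9831. limma (3.58.1, R 4.3.3) fitted a mean per group to all 24 arrays (12 residual degrees of freedom), with Benjamini-Hochberg adjustment, and was tested on simulated data. Every member probe set was named. Of the other lists, called genes and up to 4 more were named. List counts used 1 probe set per gene, that with the highest mean. Members and lists were chosen with earlier results of these data known. Alternatives were the filter, normalisation, array weights, samples fitted, replicate block and arrays left out.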

Additional observations from a re-analysis of the deposited data

Results flagged for a closer look

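The change of Ciita over 34 days differed between the ANE arm and healthy rats at both probe sets, by an interaction test. The change in ANE 34d minus that in NOCIA 34d was 1.95 at 1379381_at and 1.18 at 1369214_a_at. The ANE change itself was 0.29 and 0.22, and the NOCIA change was -1.65 and -0.96. Falls smaller than in NOCIA were also read in PLA (-0.50 and -0.03) and MTX (-0.68 and -0.34), while MS read -1.76 and -0.31. ANE 34d minus PLA 34d gave 0 of 14 calls. Both interaction calls were lost when any 1 array involved was left out. The ANE change was measured against CIA T0 and the NOCIA change against NOCIA T0, in different rats and with a different disease state. Arthritis, anaesthetic and arm cannot be told apart in this difference.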

How the results depend on the processing

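The Ciita fall in NOCIA 34d was called at both probe sets under all 8 alternatives and without any 1 array. The calls in MS 34d minus CIA T0 depended on the setting. The reported fit called 3 of 14 member probe sets, and 1439 of all 20690. With the replicate block there were 3 of 14, and 1955 of all 20690. There were 0 when only the compared groups were fitted and 0 with array weights, where 0 of all probe sets were called. With no filter there was 1 of 14, and 1142 of all 31042. Leaving out the 4 arrays that stood apart leaves 1 MS 34d rat, so no count is given for it. The deviations of same-numbered arrays correlated from -0.76 to 0.81 over 66 pairs of groups (25 above 0.1). These values do not settle whether replicate numbers mark something shared in part of the groups. The replicate block changed no other count of calls by over 1.5 times.

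Fitting only the compared groups gave 4 of 14 calls in NOCIA 34d minus NOCIA T0, where 6995 of all 20690 probe sets were called. Array weights gave 4 there, where 7109 of all were. They gave 1 each in MTX 34d minus CIA T0 and PLA 34d minus CIA T0, where 1010 and 1723 of all were. These counts are near the shares of all probe sets. Some of the 8 alternatives also gave calls in PLA 34d minus NOCIA 34d and in ANE 34d minus PLA 34d. Some gave calls in the MTX and PLA changes minus the NOCIA change. Shares of all probe sets are not given for these, so their counts are left out. Leaving out the 4 arrays leaves 1 rat in each of their groups. The medians then became -0.11 in ANE 1h minus CIA T0, -0.50 in MS 34d minus PLA 34d and -0.25 in MS 34d minus MTX 34d. With 1 probe set per gene the median was 0.17 in NOCIA 34d minus NOCIA T0 and -0.12 in NOCIA 1h minus NOCIA T0. The cause of these shifts was not tested.

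Leaving out 1 array at a time moved the calls between 0 and 9 in MS 34d minus CIA T0 and in MS 34d minus PLA 34d, 0 and 8 in MS 34d minus MTX 34d, 0 and 4 in MS 34d minus MS 1h and 0 and 6 for the MS change minus the NOCIA change, and to 0 for the ANE change. The highest counts were all without MS 34d replicate 2. In MS 34d minus CIA T0, calls over all probe sets were also highest without that array and were lost without any other. For the ANE change, calls over all probe sets also fell whichever array was left out. Shares of all probe sets are not given for the other comparisons. Each such fit leaves 1 rat in a group, so these counts show nothing particular to the member set. The medians ran from -1.78 to -0.34, -1.91 to -0.50, -1.69 to -0.25 and -1.34 to -0.0698 in the first 4 of these, from -0.11 to 0.19 in NOCIA 34d minus NOCIA T0, -0.23 to 0.14 in MTX 1h minus CIA T0, -0.56 to -0.11 in ANE 1h minus CIA T0 and -0.37 to 0.032 in MTX 34d minus PLA 34d. A lone array was assumed to vary like the other groups.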

Other observations

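Class I presentation, which shows peptides from inside the cell to CD8+ T cells, had 16 genes with a probe set. In MS 34d minus CIA T0, 1 of the 16 was called, Erap1, the peptidase that trims peptides in the endoplasmic reticulum, at -1.20 ± 0.31 (SE, adjusted p = 0.0415, limma), where 5.44% of all probe sets were called lower and 1.52% higher. Of the 16, 12 lay below 0 with a median of -0.85, and the mean centred level was -0.66 in MS 34d replicate 1 and -0.17 in replicate 2, against 0.10 and 0.16 in CIA T0. B2m, the light chain of class I molecules, differed by 0.20 ± 0.13 (SE), and Nlrc5, a transactivator of class I genes, by -0.94 ± 0.38 (SE, adjusted p = 0.0938, limma). In NOCIA 34d minus NOCIA T0, 0 of 16 were called.

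Of 5 costimulatory genes kept by the filter, 2 were called higher in NOCIA 34d than in NOCIA T0, where 6.31% of all probe sets were called higher and 5.66% lower. The 2 genes were Icam1, an adhesion molecule, at 2.202 ± 0.53 (SE, adjusted p = 0.0128, limma) and Cd83, a marker of activated presenting cells, at 1.44 ± 0.42 (SE, adjusted p = 0.0343, limma). Cd86, a ligand of CD28, differed by 0.37 ± 0.28 (SE). In MS 34d minus CIA T0, 0 of 5 were called, where 5.44% of all probe sets were called lower and 1.52% higher.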
